A study of Mus musculus with 16 samples.

Results

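The 9 genes described here were at or near 0, or at a lower level, in wild type quadriceps and were higher in quadriceps of Mtm1 knockout mice. They are Sprr1a, Ripply1, Hsf2bp, Th, Ttc9, Cpne2, Sox9, Serpinb6a and Mvp, which make up 9 of the 41388 genes in the count table, and all 9 symbols were found in it. They were selected on their counts, as higher in the knockout than in the wild type in these same libraries, so their levels and fitted differences between those groups are given as a description, and nothing is read from calls on them. The effects of tamoxifen on them were not what they were chosen for and were tested. Those tests use libraries that the choice used, so they are not independent of it.

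Each library came from 1 µg total RNA of the quadriceps muscle of mice at postnatal day 36, all on the C57BL/6 background, with 4 libraries in each of 4 groups. WT mice had an intact Mtm1 gene and no tamoxifen, and WT + TAM mice had the same genotype and chow with tamoxifen, an estrogen receptor modulator, at 40 mg/kg/day from day 21. Mtm1 KO mice (labelled mtm1 -/-) carried a targeted deletion of exon 4 of Mtm1, which encodes myotubularin, a phosphoinositide phosphatase, and Mtm1 KO + TAM mice had this deletion and the same tamoxifen chow. The study counts individual mice as replicates, and its comparison used 14 libraries, leaving out 1 of WT and 1 of Mtm1 KO for no stated reason.

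Totals were 25702605 to 29847222 counts per library in these 14. Mtm1, the deleted gene, had 341 to 369 counts in WT, 282 to 459 in WT + TAM, 63 to 76 in Mtm1 KO and 53 to 97 in Mtm1 KO + TAM. Of the libraries left out, the one labelled WT replicate 1 had 74 Mtm1 counts, inside the range of the knockout libraries, and Mtm1 KO replicate 12 had 85. Because its Mtm1 count goes against its label, the library labelled WT replicate 1 stays outside the means and folds below, and its values are given beside them. As a check of the labelled tissue, 7 skeletal muscle fiber genes (such as Acta1, Ckm and Myh4) were all detected and summed to 55300 to 108000 RPKM (reads per kilobase of gene, scaled by the library's total count) in each of the 14 libraries.

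Whole muscle holds many cell types, so that in these libraries more cells of one type and more RNA per cell cannot be told apart. A skeletal muscle fiber has a narrow set of abundant transcripts, and a fiber that loses its nerve supply, is injured or regenerates is known to turn on genes that a resting adult fiber keeps off. The 9 genes come from unrelated families. Sprr1a encodes a small proline-rich protein of the cornified envelope of skin that is also known for its induction in injured neurons. Ripply1 is a corepressor of T-box factors in the segmenting somite, Hsf2bp is a partner of heat shock factor 2 and of BRCA2 that acts in meiosis, and Th is tyrosine hydroxylase, the rate-limiting enzyme of catecholamine synthesis. Ttc9 encodes a tetratricopeptide repeat protein, Cpne2 a copine that binds membrane lipids in a calcium-dependent way, Sox9 the transcription factor that directs cartilage formation, Serpinb6a an intracellular inhibitor of serine proteases, and Mvp the major vault protein, the shell of the vault particle.

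The 9 genes were proposed as normally silent, and the data went against that for 5 of them. A mean WT level under 0.1 RPKM was seen for 4 genes, which were Sprr1a at 0, Th at 0.02, Ripply1 at 0.0297 and Hsf2bp at 0.0683 RPKM. Sox9 was low at 0.795 RPKM. The other 4 were plainly transcribed in WT, namely Ttc9 at 2.92, Cpne2 at 3.48, Mvp at 9.07 and Serpinb6a at 27.8 RPKM, and the level of Serpinb6a was above that of 94% of genes with a count. Over the whole table, 15 genes had at most 5 counts in every WT library and at least 20 in every Mtm1 KO library of the main set, and 3 of them are among the 9 (Sprr1a, Ripply1 and Th). Fosl1, a subunit of the AP-1 transcription factor, had the most knockout counts of the 15, with 2 counts summed over WT and 322 over Mtm1 KO. It was named after its values were seen. The same limits applied to WT + TAM and Mtm1 KO + TAM gave 6 genes, and Sprr1a was the only one of the 9 among them and the only one of the 15.

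The sequences upstream of the start site are shown for the genes of this set whose window holds the AP-1 motif TGANTCA. RefSeq promoters (GRCm38.p6, 250 bases before to 50 after the start site) were found for 8 of the 9 genes, and each is printed 5′ to 3′ from 250 bases upstream up to the start site, with the motif in capitals.
Sprr1a (chr3:92485882-92486131, minus strand): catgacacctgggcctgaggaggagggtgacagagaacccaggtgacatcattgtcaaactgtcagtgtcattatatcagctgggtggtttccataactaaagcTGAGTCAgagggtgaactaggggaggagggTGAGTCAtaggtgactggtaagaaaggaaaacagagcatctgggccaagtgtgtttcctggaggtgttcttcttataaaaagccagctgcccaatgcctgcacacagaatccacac
Ripply1 (chrX:139782354-139782603, minus strand): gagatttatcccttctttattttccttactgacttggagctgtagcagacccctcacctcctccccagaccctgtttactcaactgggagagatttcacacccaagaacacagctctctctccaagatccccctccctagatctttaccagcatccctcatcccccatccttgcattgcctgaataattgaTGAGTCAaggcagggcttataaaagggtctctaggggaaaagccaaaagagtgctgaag
Th (chr7:142899996-142900245, minus strand): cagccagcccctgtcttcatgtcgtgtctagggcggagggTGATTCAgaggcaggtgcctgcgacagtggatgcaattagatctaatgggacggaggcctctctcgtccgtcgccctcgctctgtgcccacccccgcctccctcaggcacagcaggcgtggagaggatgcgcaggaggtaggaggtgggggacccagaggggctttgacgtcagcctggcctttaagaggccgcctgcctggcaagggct
Mvp (chr7:127014595-127014844, minus strand): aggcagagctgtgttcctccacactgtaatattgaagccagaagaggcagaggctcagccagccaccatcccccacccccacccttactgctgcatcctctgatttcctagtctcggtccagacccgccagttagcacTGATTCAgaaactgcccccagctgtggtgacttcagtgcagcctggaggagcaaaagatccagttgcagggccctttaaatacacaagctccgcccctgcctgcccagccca
TGANTCA, searched on both strands, was present in windows of 4 of the 8 genes and in 7.81% of all 32851 promoter windows. Sprr1a held it at 2 places, starting 146 and 116 bases before the start site, and 0.46% of all windows held 2 or more. It started 59 bases before the start of Ripply1, 112 before that of Mvp and 210 before that of Th. The cyclic AMP response element TGACGTCA was found in 1 of these genes, Th, starting 45 bases upstream, and in 1.79% of all windows. The E-box CANNTG was present for 6 of the 8 genes against 72.3% of all windows, the STAT motif TTCNNNGAA for 2 against 8.3%, the heat shock element core GAANNTTC for 1 against 7.86% and the TEAD motif CATTCC for 1 against 14.7%. A match describes letters only, and no binding was measured. In GENCODE vM21, 14 bases of the Sprr1a window, 19 of the Th window and 27 of the Mvp window lie in annotated exons.

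Sprr1a was the gene with the clearest off state. In GRCm38 it lies on chromosome 3 from 92483952 to 92485895 (minus strand). The counts were 0, 0 and 0 in WT and 49, 96 and 150 in Mtm1 KO (replicates 9, 10 and 11). In WT + TAM they were 0, 0, 2 and 0, and in Mtm1 KO + TAM 42, 30, 118 and 54. No wild type library came near a knockout one. The library labelled WT replicate 1 had 0 counts, and Mtm1 KO replicate 12 had 215, the highest of all. On counts per total, Sprr1a was at least 102-fold higher in Mtm1 KO than in WT, taking a floor of 3 counts over the group (67.5 to 126 with each library left out in turn, lowest without WT replicate 2). Between the treated groups the ratio was 109 (95% counting interval 29.9 to 908). Without WT + TAM replicate 7, which held the only 2 wild type counts, it was at least 55-fold. Most relatives of Sprr1a had no counts. Of 21 other genes of the cornified envelope and small proline-rich family, 15 had 0 counts in every Mtm1 KO library of the main set and 1 passed the count filter, with 0 called by edgeR, 0 at an unadjusted p under 0.05 and 0 called by DESeq2. The one that passed was Ppl, a plakin of the envelope, with 226 counts summed over WT and 177 over Mtm1 KO (adjusted p = 0.278). The neighbours of Sprr1a, Sprr3 and Sprr4, had 0 counts in WT and in Mtm1 KO. Of 7 keratinocyte markers 2 were tested and 0 passed in Mtm1 KO (edgeR; 1 at an unadjusted p under 0.05, 1 called by DESeq2), and Krt5 and Krt14, keratins of the basal layer, were at 0 RPKM in Mtm1 KO. Trp63, a transcription factor of basal epithelium, had 579 counts summed over WT and 2031 over Mtm1 KO (log2 fold change 1.53 ± 0.33 SE, edgeR adjusted p = 0.0188), and it rose in the treated pair (log2 fold change 1.86 ± 0.31 SE, adjusted p = 0.00267). The 7 summed to 2.73 to 3.31 RPKM in WT and 4.49 to 5.92 in Mtm1 KO, and their part in the level of Sprr1a was not tested. Sprr1a also belongs to the response of injured nerve cells. Of 14 other genes of that response found among the genes counted, 11 were tested, and 2 rose in Mtm1 KO, where 1.91% of all genes were called higher, with 5 at an unadjusted p under 0.05. Gadd45a, a stress response gene, was at 1.68 ± 0.39 on the log2 scale (edgeR adjusted p = 0.0242), and it rose in the treated pair (adjusted p = 0.0016). Sox11, a transcription factor, rose from 0.116 ± 0.0908 to 2.21 ± 0.481 RPKM (SD, n = 3 each; log2 fold change 3.96 ± 0.46 SE, edgeR adjusted p = 0.00158), and Hspb1, a small heat shock protein, rose by 1.27 ± 0.14 on the log2 scale. The median log2 fold change of the list was 0.66, against 0.02 over all genes. Gap43, Stmn4 and Stmn2 were below 0, at -0.54 ± 0.51, -0.17 ± 0.32 and -0.15 ± 0.26 (edgeR adjusted p = 0.522, 0.772 and 0.737), and the other tested genes were above 0. Npy, Vip and Ecel1 were at or near 0 RPKM.

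Ripply1 and Th were near 0 in WT and the most uneven genes of the set in the knockout. Ripply1 (chromosome X, 139779549 to 139782353, minus strand) had 1, 1 and 0 counts in WT and 60, 22 and 133 in Mtm1 KO. It had 0, 1, 10 and 8 in WT + TAM and 58, 315, 59 and 33 in Mtm1 KO + TAM. The groups did not overlap, but the highest treated wild type library, at 0.48 RPKM, was not far below the lowest knockout library, at 1.04 RPKM. The ratio of Mtm1 KO to WT was 112 (95% counting interval 30.6 to 929, covering counting error only), on 2 counts summed over WT. Without Mtm1 KO replicate 11 it was 65.7. Ripply1 acts with T-box factors and with the Groucho family in somites. Of 25 other genes of this setting 18 were tested in Mtm1 KO against WT, and edgeR called 0 (median log2 fold change -0.11), with 5 at an unadjusted p under 0.05 and 2 called by DESeq2. Its paralog Ripply2 had no counts in any group, and the other paralog, Ripply3, was at 0.826 ± 0.314 RPKM in WT and 1.84 ± 0.391 in Mtm1 KO (SD, n = 3 each; edgeR adjusted p = 0.138). Meox1, a homeobox gene of the somite, had 3.51 ± 0.836 RPKM in WT and 9.49 ± 2.66 in Mtm1 KO (SD, n = 3 each), short of the threshold (edgeR adjusted p = 0.0199), and rose between the treated groups (log2 fold change 1.66 ± 0.30 SE, adjusted p = 0.00425). The neighbour of Ripply1 on the higher side, Cldn2, a claudin, had 18 counts summed over WT and 154 over Mtm1 KO (adjusted p = 0.0545), and it rose between the treated groups (log2 fold change 3.41 ± 0.70 SE, adjusted p = 0.00743).

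Th (chromosome 7, 142892752 to 142931128, minus strand) had 3, 1 and 0 counts in WT and 44, 27 and 114 in Mtm1 KO. It had 2, 4, 7 and 2 in WT + TAM and 96, 300, 39 and 29 in Mtm1 KO + TAM. The mean level was 0.02 ± 0.0229 RPKM in WT and 0.955 ± 0.67 in Mtm1 KO (SD, n = 3 each), and the highest single library, Mtm1 KO + TAM replicate 14, was at 4.31 RPKM. Of 18 other genes of catecholamine synthesis, transport and breakdown 13 were tested in Mtm1 KO against WT, and edgeR called 0, with 6 at an unadjusted p under 0.05 and 2 called by DESeq2. Their median log2 fold change was 0.03, against 0.02 over all genes. Of the 6, Pcbd1, Pnmt and Maoa were above 0, and Qdpr, Tph1 and Spr below 0. Pcbd1 was at 1.53 ± 0.42 and Pnmt at 1.48 ± 0.38 (edgeR adjusted p = 0.0455 and 0.0348). In the treated pair they were at 2.34 ± 0.56 and -0.16 ± 0.34 (adjusted p = 0.0166 and 0.774). Dbh, which makes noradrenaline, was at 0.0217 RPKM in WT and 0.046 in Mtm1 KO. Gch1, which starts synthesis of the cofactor of tyrosine hydroxylase, was at 1.47 ± 0.0867 and 1.87 ± 0.529 RPKM. The markers of sympathetic neurons and chromaffin cells, which normally make catecholamines, were mostly near 0. Npy had 0 counts in WT and 0 in Mtm1 KO, and Slc6a2, the noradrenaline transporter, was at 0.126 ± 0.034 and 0.081 ± 0.018 RPKM. The summed level of the 7 markers went from 1.52 to 4.02 RPKM in WT to 29.7 to 51.1 in Mtm1 KO, and nearly all of it was Uchl1, a ubiquitin hydrolase of neurons. Uchl1 rose from 2.11 ± 1.49 to 38.1 ± 11.2 RPKM (log2 fold change 3.87 ± 0.43 SE, adjusted p = 0.00131). The part of such cells in the level of Th was not tested.

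Hsf2bp (chromosome 17, 31944769 to 32036349, minus strand) had 5, 0 and 12 counts in WT and 131, 73 and 172 in Mtm1 KO. It had 2, 7, 8 and 13 in WT + TAM and 78, 313, 196 and 165 in Mtm1 KO + TAM. The means were 0.0683 ± 0.0734 RPKM in WT and 1.56 ± 0.566 in Mtm1 KO (SD, n = 3 each), with every knockout library above every wild type one. Of 17 partners, heat shock factors and meiotic recombination genes 6 were tested in Mtm1 KO against WT, and 0 were called by edgeR, 0 were at an unadjusted p under 0.05 and 0 were called by DESeq2. Hsf2 was at 9.98 ± 0.402 RPKM in WT and 12.5 ± 0.78 in Mtm1 KO (log2 fold change 0.02, adjusted p = 0.949), and Brca2 was at 0.077 and 0.163 RPKM. Of the germ cell markers Tex101 and Sycp1 were at 0 in every group, and the 5 markers summed to 0.489 to 0.719 RPKM in WT and 0.351 to 0.46 in Mtm1 KO. A stretch of 54 exonic bases is shared with Rrp1b on the other strand, which holds 0.307% of the 50-base stretches of Hsf2bp.

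Ttc9 and Cpne2 were transcribed in WT and had larger log2 fold changes than Sox9, Mvp and Serpinb6a. Their levels varied between the knockout libraries. Ttc9 (chromosome 12, 81631249 to 81667557, plus strand) had 189, 169 and 141 counts in WT and 1453, 1005 and 1842 in Mtm1 KO. It had 99, 140, 129 and 142 in WT + TAM and 1024, 2662, 2046 and 1531 in Mtm1 KO + TAM. Cpne2 (chromosome 8, 94532990 to 94570531, plus strand) had 311, 311 and 308 counts in WT and 3421, 2982 and 5631 in Mtm1 KO. It had 212, 227, 249 and 284 in WT + TAM and 2426, 6882, 4055 and 2165 in Mtm1 KO + TAM. In both genes the lowest knockout library lay far above the highest wild type one. Ttc9 had 131 counts and Cpne2 209 in the library labelled WT replicate 1, at the wild type level in spite of its Mtm1 count. Ttc9c, a relative of Ttc9, was at 3.77 ± 0.594 RPKM in WT and 4.01 ± 1.07 in Mtm1 KO, and Ttc9b was at or near 0. Of 8 other copines 3 were tested, with 0 called by edgeR, 0 at an unadjusted p under 0.05 and 0 called by DESeq2. Cpne3, the most abundant in WT, was at 2.2 ± 0.291 and 2.6 ± 0.0978 RPKM. The 8 together summed to 3.79 to 4.04 RPKM in Mtm1 KO, where Cpne2 alone was at 46.4 ± 14.1 RPKM (SD, n = 3).

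Sox9 (chromosome 11, 112782224 to 112787760, plus strand) had 84, 108 and 82 counts in WT and 324, 483 and 472 in Mtm1 KO. It had 98, 89, 143 and 173 in WT + TAM and 402, 438, 452 and 395 in Mtm1 KO + TAM. The library labelled WT replicate 1, with 144 counts, was the highest of the untreated wild type libraries, and Mtm1 KO replicate 12, with 793, the highest of all. Sox9 has the best known targets of the 9 genes, those of cartilage. Of 17 partners and cartilage genes 12 were tested in Mtm1 KO against WT, and 0 rose and 1 fell, with 2 at an unadjusted p under 0.05. DESeq2 called 1, and the median log2 fold change was 0.67, against 0.02 over all genes. The one that fell was Sox6, a partner of Sox9 in cartilage that also acts in muscle fibers, which fell from 13.1 ± 1.58 to 8.24 ± 0.996 RPKM (SD, n = 3 each; log2 fold change -0.98 ± 0.15 SE). In the treated pair 14 were tested, and 1 rose, where 3.42% of all genes were called higher, and 1 fell. At an unadjusted p under 0.05 there were 7, DESeq2 called 4, and the median was -0.24, against -0.01 over all genes. Runx2 rose (log2 fold change 1.85 ± 0.37 SE, edgeR adjusted p = 0.00693) and Sox6 fell (-1 ± 0.17, adjusted p = 0.00351). Runx2 was at 0.98 ± 0.54 untreated (adjusted p = 0.26). Col9a1 and Col11a2, short of the threshold in the treated pair, were at -1.96 ± 0.44 and -0.89 ± 0.24 there (edgeR adjusted p = 0.0118 and 0.0263). Col2a1, the collagen of cartilage, was high in 1 library only, with 27.3 RPKM in Mtm1 KO replicate 10 against 0.351 in replicate 9 and 0.574 in replicate 11. That library was also the highest of the 7 knockout libraries of the main set for Sox9, at 4.49 RPKM against 4.05 in replicate 11. Comp, a matrix protein of cartilage and tendon, was at 64.7 RPKM in Mtm1 KO replicate 10, 36.7 in Mtm1 KO replicate 12 and 41.3 in the library labelled WT replicate 1, and at 5.86 to 15.4 RPKM in the other 13 libraries. These 3 libraries also had the highest Sox9 of the untreated libraries of their label, at 4.49, 7.38 and 1.39 RPKM. The same library had the highest summed tendon markers of the 7 knockout libraries, at 224 RPKM against 88.6 to 125 in the others. The part of cartilage or tendon carried along with the muscle was not tested.

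Serpinb6a and Mvp were abundant in WT and higher in the knockout by smaller factors than most of the set. Serpinb6a (chromosome 13, 33917918 to 34002794, minus strand) had 3977, 4160 and 4398 counts in WT and 13975, 13169 and 21611 in Mtm1 KO. It had 2813, 2444, 2363 and 2292 in WT + TAM and 9215, 15741, 15731 and 11743 in Mtm1 KO + TAM. Mvp (chromosome 7, 126986860 to 127014621, minus strand) had 881, 610 and 709 counts in WT and 2449, 2492 and 3720 in Mtm1 KO. It had 608, 611, 568 and 611 in WT + TAM and 2553, 2921, 3601 and 1973 in Mtm1 KO + TAM. Both were at wild type level in the library labelled WT replicate 1, with 3521 and 849 counts. Of 18 other clade B serpins 5 were tested and 2 rose in Mtm1 KO, with 0 falling, where 1.91% of all genes were called higher. Serpinb1a, an inhibitor of neutrophil proteases, rose from 5.76 ± 1.76 to 41.1 ± 6.41 RPKM (SD, n = 3 each; edgeR adjusted p = 0.000837), and Serpinb8 rose by 1.59 ± 0.25 on the log2 scale from 0.376 RPKM. Of the vault proteins, Tep1, the telomerase-associated component, rose from 1.56 ± 0.0382 to 3.14 ± 0.171 RPKM (log2 fold change 0.70 ± 0.12 SE, adjusted p = 0.00936), and Parp4 did not pass, at 1.44 and 2.04 RPKM (adjusted p = 0.47). In the treated pair neither passed, with Tep1 at 0.32 ± 0.13 on the log2 scale (edgeR adjusted p = 0.119) and Parp4 at 0.25 ± 0.23 (adjusted p = 0.496). Serpinb6a overlaps Nqo2, Ripk1 and the antisense gene 1110046J04Rik on the other strand, with 25.1% of its 50-base stretches found in another gene, mostly Nqo2. Nqo2 itself did not pass (log2 fold change -0.18, adjusted p = 0.398), while 1110046J04Rik had 102 counts summed over WT and 499 over Mtm1 KO (adjusted p = 0.0192). Whether counting used strand is not given in the sources used here, so that reads of these genes and of Serpinb6a cannot be told apart where they overlap. Mvp shares 5.36% of its stretches with Pagr1b.

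**Figure D1:**
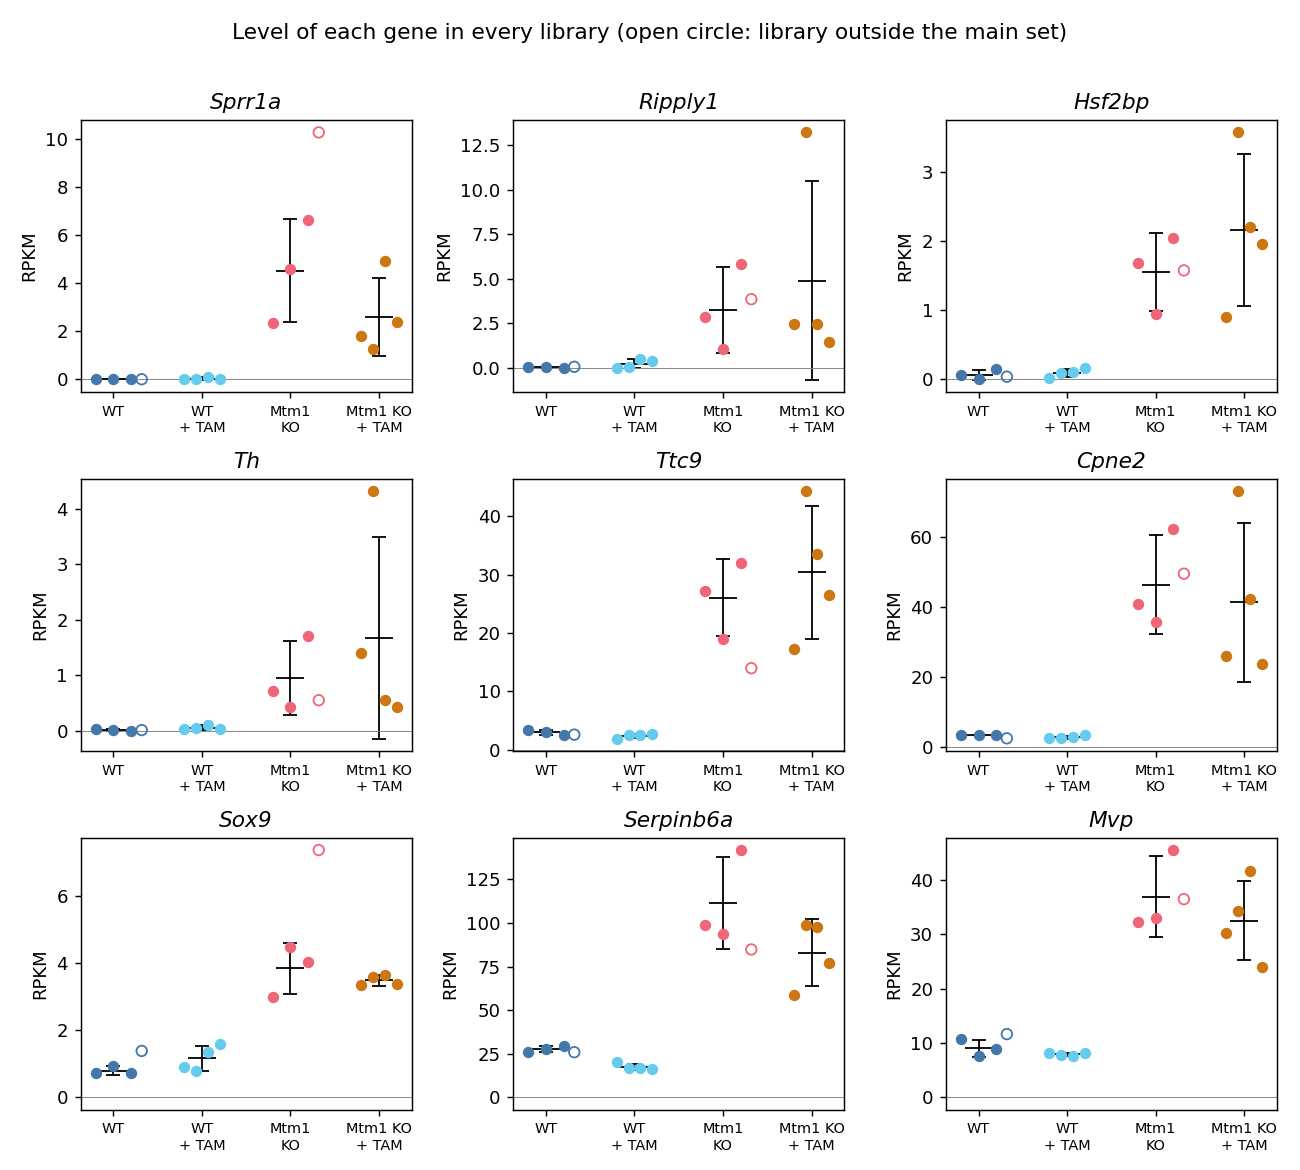
Level of the 9 genes in RPKM (vertical axis, linear) in each library of the 4 groups (horizontal axis). Filled points are the 14 libraries of the main set, open points the library labelled WT replicate 1 and Mtm1 KO replicate 12, and bars the mean and SD of the filled points. For each gene all 8 knockout libraries lie above all 8 wild type libraries. The share of all genes for which this held was not computed.

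Across all 16 libraries, the lowest knockout library was above the highest wild type library for 9 of the 9 genes on the RPKM scale. The share of all genes with such a gap over the 16 libraries was not computed. For Mtm1 KO above WT in the main set, 3 libraries against 3, it was 40.9% of genes tested on RPKM. That condition is easier to meet than the one over 16 libraries, which also counts the library labelled WT replicate 1 as wild type. The narrowest gap of the 9 was that of Sox9, at 3 against 1.61 RPKM, followed by Serpinb6a, at 58.6 against 29.5, and Mvp, at 24 against 11.6 RPKM, the last in the library labelled WT replicate 1. In the fits of 2 groups (edgeR quasi-likelihood test, TMM scaling, adjusted p of at most 0.01), 9 of 9 genes were called higher in Mtm1 KO than in WT, an outcome that the selection fixed, and 1.91% of the 14740 genes tested were called higher. Between the treated groups 8 of 9 were called higher, as were 3.42% of 14563 genes, and Ripply1 did not pass. With each library left out in turn, 6 to 7 of the 9 were called untreated and 7 to 9 treated, and the calls lost were among Sprr1a, Ripply1, Hsf2bp and Th. Groups without overlap, Mtm1 KO above WT, were seen for 9 of 9 genes and for 18.7% of all genes tested on TMM-scaled counts (40.9% on RPKM). For the treated groups these shares were 9 of 9 genes, 11% and 26.5%. Since the choice of the 9 genes used these contrasts, nothing is read from the counts.

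The fitted differences covered a wide range. They are on TMM-scaled counts, where the folds of knockout against wild type come out smaller than on RPKM, which is scaled by the total count. In Mtm1 KO against WT they were, as log2 fold changes with SE, 6.26 ± 0.96 for Ripply1, 5.16 ± 0.87 for Th, 4.19 ± 0.71 for Hsf2bp, 3.43 ± 0.23 for Cpne2 and 2.85 ± 0.22 for Ttc9. They were 1.96 ± 0.23 for Sox9, 1.73 ± 0.18 for Mvp and 1.70 ± 0.19 for Serpinb6a. The fitted value of Sprr1a rests on the prior count, since WT was at 0, and is no bound. The median of the 9 was 3.43, also with Sprr1a at its bound of 6.67, against 0.02 over all genes tested. Between the treated groups the median was 3.53, and the values ran from 1.30 ± 0.21 for Sox9 to 6.19 ± 0.80 for Sprr1a, against -0.01 over all genes. Sox9, at 1.96 untreated and 1.30 treated, and Ripply1, at 6.26 and 4.12 ± 0.90, had lower values in the treated pair, and Ttc9, at 2.85 and 3.38 ± 0.24, a higher one. The 2 pairs share no library, and the differences between them are those of the interaction term given with tamoxifen.

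**Figure D2:**
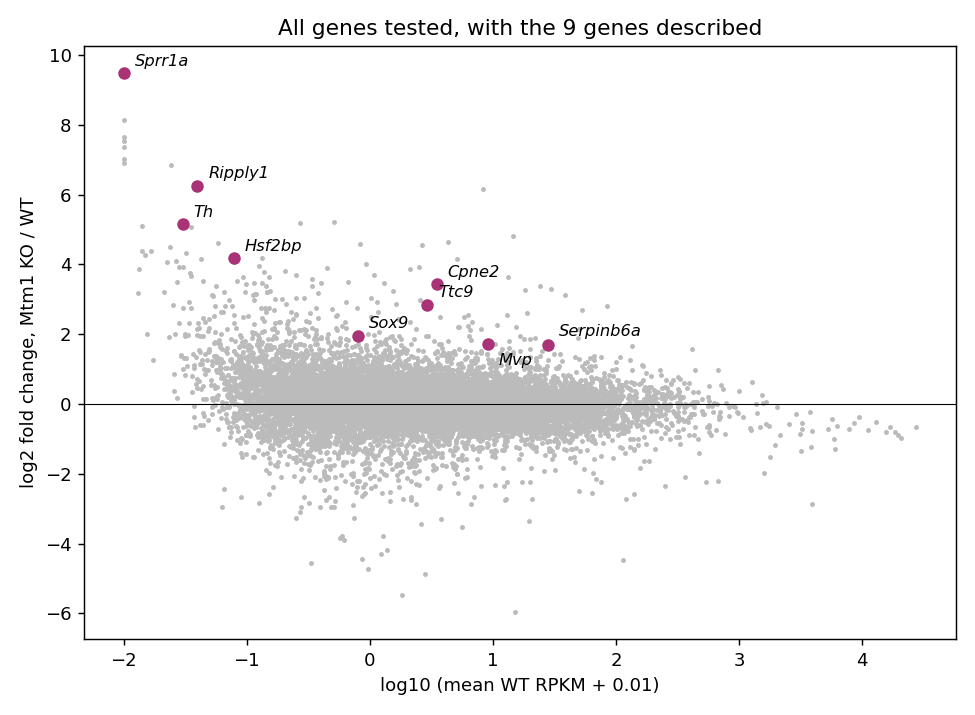
Mean WT level of each of the 14740 genes tested (horizontal axis, log10 of RPKM plus 0.01) against its log2 fold change from WT to Mtm1 KO (vertical axis). The 9 genes are marked, and their WT means span 0 to 27.8 RPKM; the height of Sprr1a, with no WT count, depends on the prior count of the fit.

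**Figure D3:**
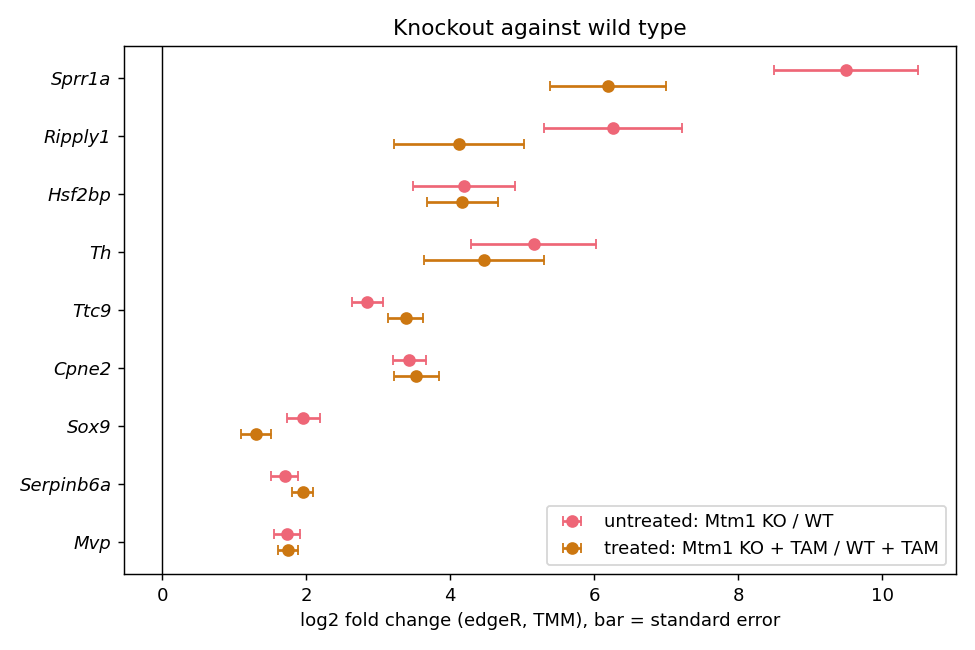
Log2 fold change (horizontal axis) of each of the 9 genes (vertical axis) between knockout and wild type, untreated and with tamoxifen, with bars for the standard error. All values are above 0, and they run from 1.30 to 9.49.

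Tamoxifen in the knockout muscle was then tested. The genes were not chosen on this comparison, but the choice used the same libraries. Through it the untreated levels may be high in the knockout and low in the wild type, which was not tested. None of the 9 genes passed in Mtm1 KO + TAM against Mtm1 KO (edgeR quasi-likelihood test, 4 against 3 libraries), and 0% of the 15062 genes tested did. At an unadjusted p under 0.05 the count was 0 of 9, against 7.55% of all genes. DESeq2 and edgeR's exact test called 0 of the 9 as well, and 72 of all genes each. Log2 fold changes were above 0 for 4 of the 9 and below 0 for 5, with a median of -0.09 against -0.01 over all genes. The groups overlapped for 9 of 9, while 3.55% of all genes had every treated library higher and 4.02% every treated library lower. The lowest was Sprr1a, at -0.79 ± 0.45 SE (edgeR adjusted p = 0.773). Its mean was 4.5 ± 2.14 RPKM in Mtm1 KO (SD, n = 3) and 2.58 ± 1.61 in Mtm1 KO + TAM (SD, n = 4), and the 2 groups overlapped. The lowest adjusted p was that of Serpinb6a, at -0.40 ± 0.20 (adjusted p = 0.699), with 111 ± 26.4 RPKM untreated and 82.9 ± 19.1 treated.

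For the other genes the spread within the groups was as large as the difference. Th was at 0.83 ± 0.73 on the log2 scale (adjusted p = 0.87) and Ripply1 at 0.60 ± 0.73 (adjusted p = 0.923). Both values were set by Mtm1 KO + TAM replicate 14, and without it they were -0.20 and -0.57. Hsf2bp was at 0.49 ± 0.39, Ttc9 at 0.24 ± 0.26, Cpne2 at -0.15 ± 0.33, Mvp at -0.15 ± 0.18 and Sox9 at -0.09 ± 0.15. The standard errors ran from 0.15 for Sox9 to 0.73 for Ripply1 and Th, and a missed threshold does not show that levels were alike.

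Tamoxifen in wild type muscle could be tested for 5 of the 9 genes. Sprr1a, Ripply1, Hsf2bp and Th were too low to pass the filter, with 0, 2, 17 and 4 counts summed over WT and 2, 19, 30 and 15 over WT + TAM. None of the 5 passed at 0.01, against 0.131% of the 14544 genes tested, and 1 was below an unadjusted p of 0.05, against 10.7% of all genes. That gene was Serpinb6a, which went from 27.8 ± 1.78 RPKM in WT (SD, n = 3) to 17.5 ± 1.7 in WT + TAM (SD, n = 4), a log2 fold change of -0.66 ± 0.12 SE (edgeR adjusted p = 0.0481). The highest treated library, at 20.1 RPKM, was below the lowest untreated one, at 25.9 RPKM, which was also so for 6.5% of all genes on TMM-scaled counts. The library labelled WT replicate 1 was on the untreated side, at 25.9 RPKM. Of the genes overlapping Serpinb6a, Nqo2 was at -0.49 ± 0.12 on the log2 scale in this comparison (edgeR adjusted p = 0.129). Ripk1 was at -0.01 (adjusted p = 0.991) and 1110046J04Rik at -0.27 ± 0.51 (adjusted p = 0.901). Reads of these genes and of Serpinb6a cannot be told apart where they overlap, and their part in its fall was not tested. Serpinb6a passed with DESeq2 (adjusted p = 0.000244) and edgeR's exact test (adjusted p = 0.0021), and over all alternatives its adjusted p ran from there up to 0.192, without WT replicate 4. Sox9 was at 0.55 ± 0.28 (adjusted p = 0.534), Ttc9 at -0.30 ± 0.19, Cpne2 at -0.26 ± 0.15 and Mvp at -0.19 ± 0.12.

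The effect of tamoxifen was not shown to differ between the genotypes for any of the 9 genes. In the fit over all 4 groups, the interaction gave an adjusted p of 1 for each, and 0 of 9 were below an unadjusted p of 0.05, against 4.27% of 15556 genes. The lowest unadjusted p was that of Sox9, where the effect in the knockout minus that in the wild type was -0.63 ± 0.32 on the log2 scale. For Serpinb6a this difference was 0.28 ± 0.25.

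**Figure D4:**
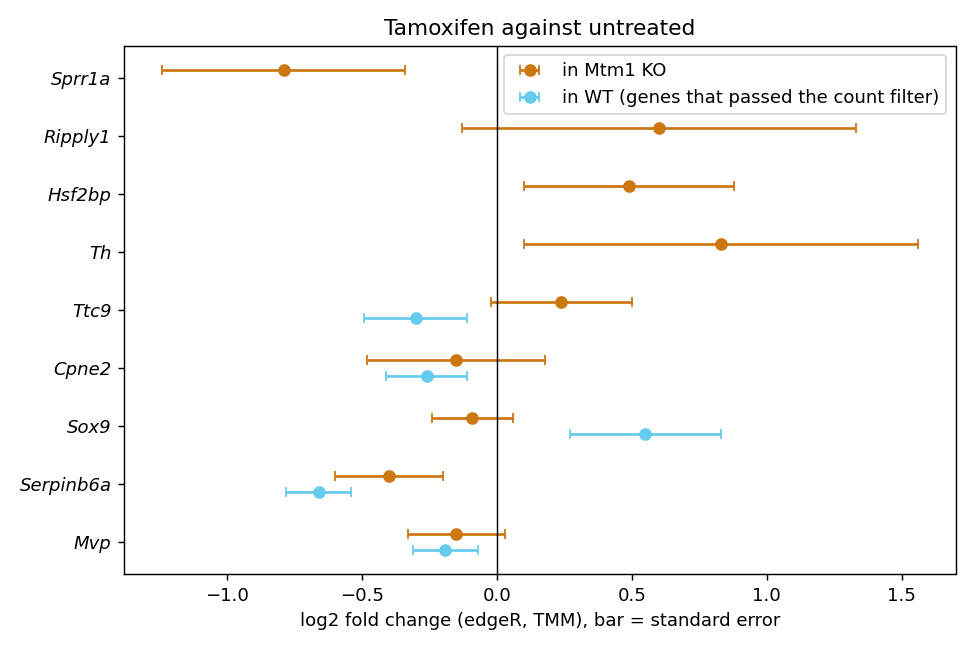
Log2 fold change with tamoxifen (horizontal axis) of each gene (vertical axis) in Mtm1 KO and, for the 5 genes that passed the count filter, in WT, with bars for the standard error. Values in the knockout run from -0.79 to 0.83 and none passed the threshold; in WT Serpinb6a is lowest at -0.66.

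How evenly the 9 genes were on in the knockout libraries differed from gene to gene. In Mtm1 KO + TAM the highest library was 9.94 times the lowest for Th and 9.17 times for Ripply1, more than in 99.9% of genes with a like mean count, whose median ratio was 1.63 for both. Hsf2bp, at 3.96 times, Cpne2, at 3.06, and Ttc9, at 2.57, were above 98.9% or more of their like. Sox9 was at the other end. Its 4 treated knockout libraries were within 1.09 times of each other, closer than in all but 1.65% of genes of like mean count. In Mtm1 KO the ratio was 5.58 for Ripply1, 3.9 for Th, 2.84 for Sprr1a and 1.41 for Mvp.

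Mtm1 KO + TAM replicate 14 stood out for several of them. Of the 8 knockout libraries it was the highest for 5 genes, which were Ripply1, Hsf2bp, Th, Ttc9 and Cpne2, and the lowest for Sprr1a. Th was there at 6.81 times and Ripply1 at 4.99 times the median of the 8 libraries, while Mvp, Serpinb6a and Sox9 were at 1.02, 1.04 and 0.992 times. Mtm1 KO replicate 12 was the highest for Sprr1a and Sox9 and the lowest for Ttc9, and Mtm1 KO replicate 11 was the highest for Serpinb6a and Mvp. Without Mtm1 KO + TAM replicate 14, the mean of Ripply1 in the treated knockout was 2.11 ± 0.583 RPKM (SD, n = 3) in place of 4.89 ± 5.57 (SD, n = 4), and that of Th 0.795 ± 0.525 in place of 1.67 ± 1.81. The summed denervation and immature fiber markers did not set this library apart, at 123 RPKM against 84 to 126 in its group. The summed sympathetic neuron markers were at 47.6 against 16.4 to 25.3 RPKM, through Uchl1, at 47.2 against 16.1 to 25 RPKM. Mtm1 KO replicate 12 had Uchl1 higher still, at 74.3 RPKM, with Th at 0.554 RPKM. Also highest of its group in replicate 14 were the summed markers of satellite cells and myoblasts (48.5 against 24.7 to 28.7 RPKM). So were those of Schwann cells (186 against 115 to 150) and keratinocytes (6.56 against 4.65 to 5.88). The leukocyte and fibroblast sums, at 95.7 and 847 RPKM, lay within the range of the others. The part of such cells in the levels of Th and Ripply1 was not tested.

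**Figure D5:**
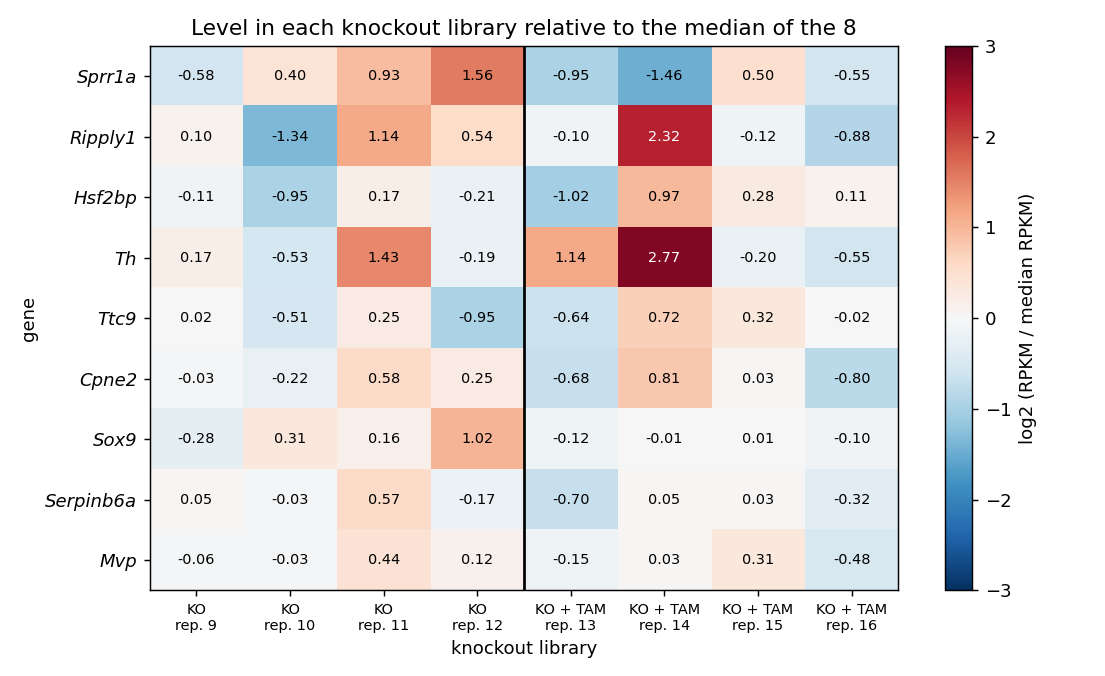
Level of the 9 genes (vertical axis) in each of the 8 knockout libraries (horizontal axis) relative to the median of the 8, as log2 (colour and printed value). Mtm1 KO + TAM replicate 14 reaches 2.77 for Th and 2.32 for Ripply1 and -1.46 for Sprr1a.

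Within the 7 knockout libraries of the main set, Hsf2bp and Ttc9 kept the same order almost library for library (log2 RPKM, Pearson's r = 0.99, Spearman's rho = 0.96), also without replicate 14 (r = 0.97, rho = 0.94, n = 6). Ripply1 and Th did so less closely (r = 0.93 and rho = 0.93, without replicate 14 0.83 and 0.89). Sprr1a did not follow them, with r = -0.33 to Ripply1 and -0.45 to Th, which became 0.29 and 0.06 without replicate 14. These are descriptions over few libraries that share their depth and scaling, with no test.

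The genes whose log2 CPM was most like that of each member over the 14 libraries were found among 15556 genes. Since 7 of these libraries are wild type and 7 knockout, the likeness largely follows the genotype. Sprr1a was closest to Ahnak2, Tubb6 and Fam129b (r = 0.983, 0.978 and 0.972), Ripply1 to Th, Tmem158 and Ncbp1 (0.955, 0.954 and 0.951), and Th to Ripply1, Gas6 and Tmem158 (0.955, 0.949 and 0.946). Hsf2bp was closest to Kcnn3, Il20rb and Ldlrad3 (0.964, 0.962 and 0.956), Ttc9 to Cpne2, Cilp and Runx1 (0.987, 0.986 and 0.983), and Cpne2 to Ttc9, Fam83g and Cilp (0.987, 0.985 and 0.984). Sox9 was closest to Gm26532, S100a4 and Pus1 (0.956, 0.955 and 0.951), Serpinb6a to Chrnd, CAAA01152789.1 and Mt3 (0.974, 0.971 and 0.97), and Mvp to Anxa4, Ahnak2 and Dbnl (0.991, 0.983 and 0.981). Runx1 and Chrnd belong to the denervation and immature fiber markers described next.

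Genes known to be on in denervated or immature fibers had the highest median log2 fold change of the marker lists in Mtm1 KO against WT. That list was chosen with earlier results of these data known, so its rank and counts are given as a description. Of its 9 genes 8 rose in Mtm1 KO against WT and 8 rose in the treated pair, with 0 falling, where 1.91% and 3.42% of all genes were called higher, and the median log2 fold change was 2.60 and 1.76. Chrng, the fetal acetylcholine receptor subunit, went from 0.141 ± 0.0289 to 2.21 ± 1.14 RPKM, Myh3, the embryonic myosin, from 0.442 ± 0.328 to 8.03 ± 1.37, and Runx1 from 0.353 ± 0.0321 to 2.94 ± 0.764 (SD, n = 3 each). The list summed to 25.8 to 27.1 RPKM in WT, 18.7 to 36.4 in WT + TAM, 118 to 170 in Mtm1 KO and 84 to 126 in Mtm1 KO + TAM. The library labelled WT replicate 1 was at 19.5 and Mtm1 KO replicate 12 at 255 RPKM. Of the 7 markers of the muscle fiber 0 passed in Mtm1 KO (edgeR; 6 at an unadjusted p under 0.05, 6 called by DESeq2) and 3 fell in the treated pair, which were Pvalb, Ckm and Myh4. The 6 at an unadjusted p under 0.05 in Mtm1 KO were below 0. Myh1 was above 0, at 442 ± 261 RPKM in WT and 1060 ± 291 in Mtm1 KO (log2 fold change 0.97 ± 0.44 SE, edgeR adjusted p = 0.173). It was also above 0 in the treated pair (0.78 ± 0.24, adjusted p = 0.0429). In Mtm1 KO against WT, edgeR called 0 of 5 tested genes each of satellite cells, leukocytes, fibroblasts and tendon, 0 of 6 of Schwann cells and 0 of 4 of endothelium. At an unadjusted p under 0.05 these counts were 4, 5, 4, 2, 1 and 2, and DESeq2 called 3, 2, 0, 1, 0 and 0. The summed leukocyte level was 52.9 to 64.5 RPKM in WT and 96.4 to 121 in Mtm1 KO, and that of satellite cells and myoblasts 14 to 21.4 and 33.5 to 80.3. Of the latter list Pax7 was lower, at 0.655 ± 0.138 RPKM in WT and 0.309 ± 0.0643 in Mtm1 KO, and Myf5 was at 0.656 and 0.686. Myod1, Tmem8c and Gm7325 were higher, at 12.5, 2.82 and 0.923 RPKM in WT and 23.6, 8.9 and 17.9 in Mtm1 KO. Gm7325, a gene of myoblast fusion, rose in the treated pair (log2 fold change 4.13 ± 0.61 SE, edgeR adjusted p = 0.00143). Pax7 was at 0.826 RPKM in WT + TAM and 0.415 in Mtm1 KO + TAM. The part of any of these cells in the 9 genes was not tested.

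The genes next to the 9 on the chromosome were mostly not called. Of 18 nearest protein-coding neighbours 13 were tested in Mtm1 KO against WT and 0 passed (edgeR; 6 at an unadjusted p under 0.05, 2 called by DESeq2), and between the treated groups 2 of 14 did, which were Cldn2 beside Ripply1 and Kcnj2, a potassium channel gene beside Sox9 (log2 fold change 0.74 ± 0.13 SE, adjusted p = 0.00342). Their log2 fold changes in Mtm1 KO were above 0 for 11 of the 13, with a median of 0.34, against 0.02 over all genes and 3.43 for the 9. Between the treated groups 9 of the 14 were above 0, with a median of 0.25, against -0.01 over all genes. Sik1, a kinase gene beside Hsf2bp, was at 1.22 (adjusted p = 0.0399) and Map3k9 beside Ttc9 at 1.91 (adjusted p = 0.0676). Ins2 and Ascl2, on the 2 sides of Th, had 0 and 11 counts summed over WT and 0 and 10 over Mtm1 KO.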

How the data were processed

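Quadriceps RNA from 16 mice was sequenced, and the authors aligned the reads in 2 steps with STAR to the GRCm38 genome and transcriptome and counted them with HTSeq. The submitters' processing notes name STAR 2.5.0c, Cufflinks 2.2.1 and bcl2fastq 2.17. For the annotation, counting mode and strand setting, the sources used here give nothing. The deposited tables hold raw counts per gene and RPKM values that the authors derived from them. Levels were taken from the deposited RPKM and tests from the counts.

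Genes were kept by filterByExpr (minimum count 10, minimum total 15) and tested between pairs of groups by the edgeR quasi-likelihood test (edgeR 4.0.16, R 4.3.3) with TMM scaling and Benjamini-Hochberg adjustment over all genes tested, at an adjusted p of at most 0.01. The interaction was fitted over 4 groups. Standard errors were computed from the fold change and its F statistic. The fits were repeated with DESeq2 1.42.0, the exact test of edgeR, limma 3.58.1 on log2(RPKM + 0.1) and log2(RPKM + 1), RLE and library size scaling, other filters, a threshold of 0.05, 1 fit over 4 groups, all 16 libraries, and single libraries removed in turn. With library size only, the median over all genes of the log2 fold change moved from 0.02 to 0.33 in Mtm1 KO against WT, where 88% of 1163 calls were higher (53.1% of 531 with TMM), and from -0.01 to 0.27 in the treated pair, where 88.4% of 1874 calls were higher (50.9% of 979).

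The 9 genes and all gene lists were chosen with earlier results of these data known. Genes named are the 9, their nearest neighbours, the members of each list that passed or were most abundant, and the 3 genes most correlated with each of the 9. Other genes were named after their values were seen. For the genotype comparisons, the share of all genes at an unadjusted p under 0.05 is not given. List counts at that level therefore have no background beside them. Counting intervals cover counting error only. The fits were tested on simulated data.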

Additional observations from a re-analysis of the deposited data

Results flagged for a closer look

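Of 35 sets of 4 libraries examined (9 genes in 4 groups, leaving out 1 set with equal values), 4 held a library whose RPKM lay far from the others, with a gap to the nearest library, as a share of the whole range, above Dixon's 95% critical value. Chance flags about 1 in 20 such sets. Ripply1 in Mtm1 KO + TAM replicate 14 was at 13.2 RPKM, with 2.46 in the nearest library (share 0.913). Sprr1a in WT + TAM replicate 7 was at 0.097 RPKM, from 2 counts, with 0 in the others (share 1.0). Ripply1 in WT replicate 4 was at 0 RPKM, with 0.044 in the nearest library (share 0.898), which is a difference of 1 count. Cpne2 in the library labelled WT replicate 1 was at 2.6 RPKM, with 3.43 in the nearest library (share 0.898), and that library was outside the main set.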

How the results depend on the processing

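No paired analysis was possible because the groups share no replicate numbers and the labels do not give the litters, although the study used littermates. With at least 10 counts in every library, 5 of the 9 genes were called in Mtm1 KO against WT and 5 in the treated pair, since only 5 pass that filter. In WT + TAM against WT, DESeq2, the exact test and a threshold of 0.05 each called 1 gene, Serpinb6a, in place of 0. With each library left out in turn, 6 to 7 genes were called in Mtm1 KO against WT and 7 to 9 in the treated pair. No alternative called any of the 9 in Mtm1 KO + TAM against Mtm1 KO or in the interaction. Over all genes, calls ran from 211 to 1885 in Mtm1 KO against WT (531 in the fit reported; 182 to 363 with a library left out), from 892 to 2476 in the treated pair (979; 424 to 921), from 0 to 72 for tamoxifen in the knockout (0; 0 to 1), from 12 to 214 in WT + TAM against WT (19; 2 to 21) and from 0 to 12 in the interaction (0).

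The direction of the log2 fold change was kept in every alternative for both genotype comparisons and for WT + TAM against WT. In the interaction Hsf2bp, at 0.00, turned to -0.01 with DESeq2, 0.00 with RLE, -0.02 with library size only and -0.13 with 16 libraries. On log2(RPKM + 0.1) and log2(RPKM + 1), Cpne2 turned to -0.01 and -0.06 and Mvp to -0.01 and -0.02, and on the second scale Ripply1 turned to 0.03 and Th to 0.24. With each library left out, tamoxifen in the knockout gave -0.57 to 1.38 for Ripply1, -0.20 to 1.60 for Th, -0.56 to 0.16 for Cpne2, -0.25 to 0.01 for Sox9 and -0.25 to 0.06 for Mvp, and the interaction gave -1.14 to 0.54 for Hsf2bp, -1.86 to 0.10 for Th, -0.29 to 0.43 for Cpne2 and -0.05 to 0.25 for Mvp. The cause was not tested. Counts of 0 to 13 per wild type library limit Sprr1a, Ripply1, Hsf2bp and Th.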
